A study of Mus musculus with 18 samples.

Results

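The 10 genes followed here, known from gliosis and the retinal injury response, were read on 18 expression arrays of mouse retina: Gfap, Edn2, Fgf2, Stat3, Socs3, Serpina3n, Lcn2, A2m, Cebpd and Cp. They were chosen by symbol, as all probe sets that the array annotation assigns to only that gene, which gave 25 probe sets of 45037 (10 of 18193 genes). Gfap had 3, Stat3 4, Socs3 3, Cebpd 2 and Cp 8 probe sets, and Edn2, Fgf2, Serpina3n, Lcn2 and A2m had 1 each. The probe set with the highest mean over the 18 arrays stands for its gene and is called its lead probe set.

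The arrays (Affymetrix, mouse) held RNA of isolated retinas of mice that lacked Plk3 (Plk3-KO) and of wild type littermates (WT) at birth (P0), at postnatal day 7 (P7) and in adulthood, with 3 arrays in each of the 6 groups. Plk3 is a polo-like kinase. All mice were untreated, their strain was given as C57Bl/6, and neither sex, litter nor the exact adult age was stated. The knockout was constitutive, in a line that had once carried the rd1 allele of Pde6b, a cause of fast photoreceptor loss, from a Black Swiss background, and that was crossed to C57Bl/6 until its litters were wild type at that locus. No injury was applied, so the values below describe these genes in unlesioned retinas.

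In the injured or degenerating retina, photoreceptors and other stressed cells release signals that Müller glia, the radial glia that span the tissue, receive. Cytokines of the interleukin-6 family act through the shared receptor subunit gp130 and Janus kinases on the transcription factor STAT3, which switches on further genes, among them its own inhibitor SOCS3. Endothelin-2 is known as a signal of stressed photoreceptors, FGF2 as a survival factor for them, and the intermediate filament protein GFAP as the classic mark of reactive Müller glia. SERPINA3N (a protease inhibitor), lipocalin-2 (an iron-siderophore binding protein), alpha-2-macroglobulin (a protease trap) and ceruloplasmin (a copper-carrying ferroxidase) are acute phase proteins that glia can make, and C/EBP delta is a transcription factor that acts on acute phase genes.

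STAT dimers bind the palindrome TTCNNNGAA. RefSeq windows of 300 bases, 250 before to 50 after the gene start (build GRCm38.p6), were at hand for 8 of the 10 genes, and the palindrome, which reads the same on both strands, was found in those of Gfap and Socs3 only. Of all 32851 windows, 8.3% held it. The stretches around both matches are shown because Gfap rose and Socs3 fell in the first week after birth. Capitals mark the palindrome, which begins 2 bases before the start of the window's transcript in Gfap and 154 bases before it in Socs3. The span listed for Socs3 as a whole begins further upstream, so the Socs3 match lies inside that span. The Gfap stretch is chr11:102897191-102897260 and the Socs3 stretch chr11:117969487-117969546, both on the minus strand.
Gfap: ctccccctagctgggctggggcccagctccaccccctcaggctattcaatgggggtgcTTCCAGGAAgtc
Socs3: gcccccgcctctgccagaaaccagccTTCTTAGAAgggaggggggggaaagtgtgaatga
A match of letters says nothing of whether STAT3 binds there in retina.

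The values are log2 MAS5 signals, given to 1 decimal, and 1 unit is a 2-fold difference. A group mean above 7, the minimum the methods used, was required for a test. Array medians lay between 6.3 and 7.2. The third adult Plk3-KO array stood apart: its median correlation with the other adult arrays was 0.813, against 0.889 to 0.917 for the other adult arrays, and its actin 3′ minus 5′ difference, a sign of RNA quality, was 2.7, against 0.8 to 1.8 on the other 17 arrays. The second P7 Plk3-KO array and the third P7 WT array had actin differences of 1.6, against 0.8 to 1.1 on the other P7 arrays. These 3 arrays and the third adult WT array (median correlation 0.889) are the 4 arrays called apart below. The Plk3 probe set lies at the 3′ end, outside the deleted part, so it does not measure the loss of the gene. It read 7.4 to 8.0 in Plk3-KO and 3.9 to 5.9 in WT adults, 6.1 to 8.1 in Plk3-KO and 6.0 to 6.3 in WT at P7, and 7.5 to 8.2 in Plk3-KO and 6.4 to 7.3 in WT at P0, so that the genotypes were apart in adults and at P0, while the second P7 Plk3-KO array (6.1) lay within the WT range. Of 9 rod photoreceptor markers, 9 were above the minimum in P7 and adult groups and 6 in P0 groups. Lens crystallins and other lens genes varied between arrays (mean of 7 genes 5.81 to 9.74 in adult Plk3-KO and 8.67 to 11.5 in adult WT, 4.96 to 5.26 in P7 Plk3-KO and 3.89 to 5.79 in P7 WT, 6.41 to 11.7 in P0 Plk3-KO and 3.57 to 13.4 in P0 WT).

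**Figure D1:**
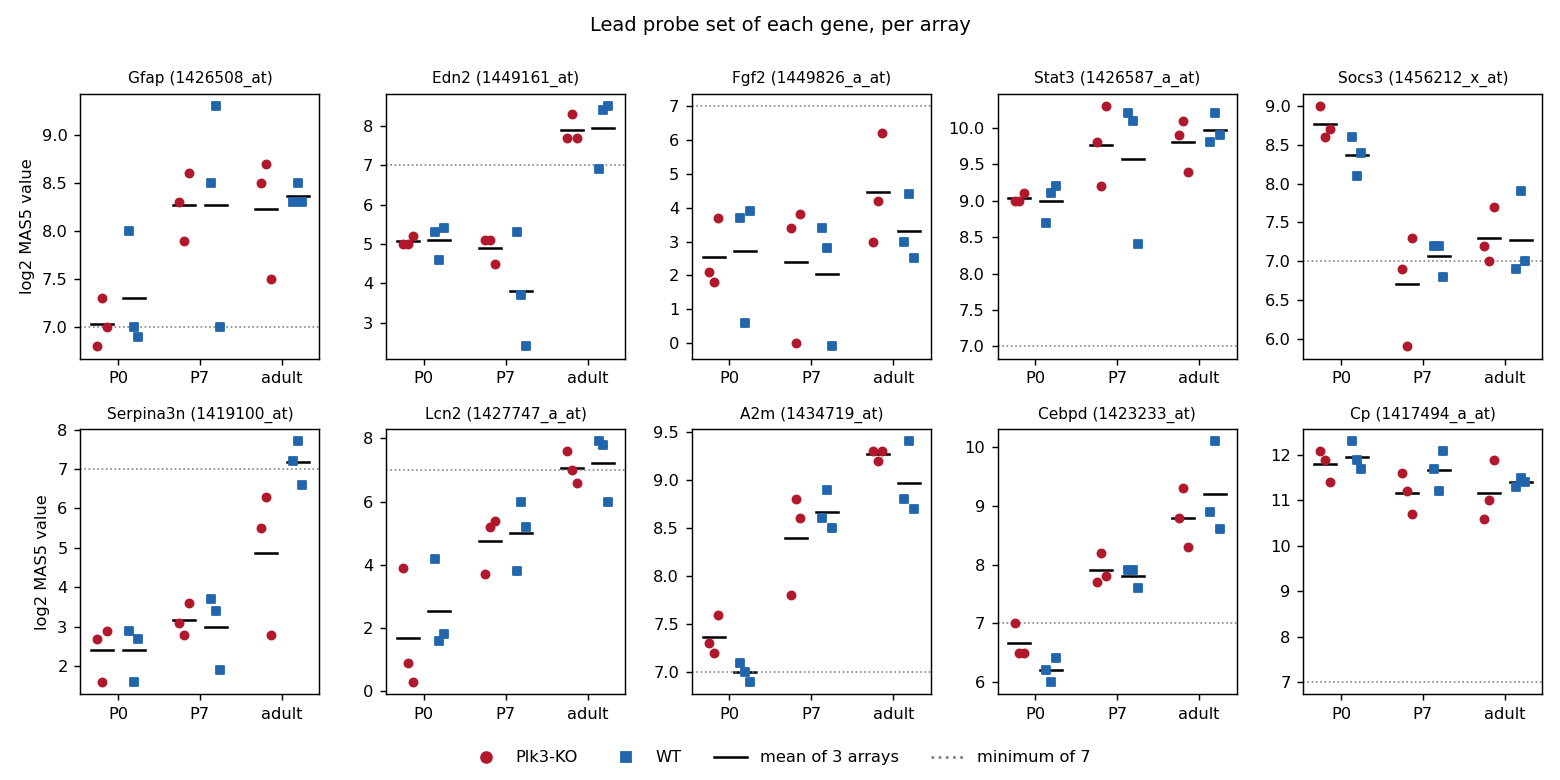
Log2 MAS5 value (vertical axis, own scale in each panel) of the lead probe set of each of the 10 genes on each array at P0, P7 and adulthood, Plk3-KO as circles left of WT as squares; bars are means of 3 arrays and the dotted line is the minimum of 7. Edn2, Serpina3n and Lcn2 reach 7 only on adult arrays, Socs3 is highest at P0, and Fgf2 stays below 7 on all 18 arrays.

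Between genotypes, none of the 10 genes differed at any age by the moderated test (limma, Benjamini-Hochberg over all probe sets tested). In adult retinas 9 lead probe sets were tested and 0 called (0% of 21005 probe sets called in either direction), at P7 6 and 0 (0% of 21390), at P0 5 and 0 (0% of 22611). Over the 3 ages together 0 of 9 were called (0% of 25085), and the genotype difference changed between ages for 0 of 9 (moderated F, 0% of 25085). At an unadjusted p under 0.05 stood 1 of the 9 in adults, against 1008 of all probe sets, and none at P7 or P0, against 123 and 85. The t-test of the methods, unadjusted, gave 0 of the lead probe sets at each age, against 660, 250 and 503 of all probe sets in adult, P7 and P0 retinas, and of the other member probe sets 1, Cp 1448734_at in adults (described below). The labels state neither litters nor batches, nor whether an array held 1 animal or a pool, so all p-values measure the spread between these arrays, which may be technical.

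Gfap, the most used mark of gliosis, was close in both genotypes. Adult arrays read 8.5, 8.7 and 7.5 in Plk3-KO, against 8.3, 8.5 and 8.3 in WT. At P7 they read 8.3, 7.9 and 8.6 in Plk3-KO, against 8.5, 9.3 and 7.0 in WT, and at P0 6.8, 7.3 and 7.0 in Plk3-KO, against 8.0, 7.0 and 6.9 in WT. On this probe set the genotypes overlapped at every age. The adult difference was -0.13 (95% interval -1.14 to 0.88), so with 3 arrays a group changes of Gfap within that interval were not excluded. The other Gfap probe set that could be tested in adults, 1426509_s_at, differed by -0.23 (-1.79 to 1.33). The third, 1440142_s_at, read 6.7, 6.8 and 6.9 in adult Plk3-KO and 5.7, 6.6 and 6.5 in adult WT, without overlap, but below the minimum and not tested.

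Stat3, the factor itself, gave 9.9, 10.1 and 9.4 in adult Plk3-KO retinas, against 9.8, 10.2 and 9.9 in adult WT. Its adult difference was -0.17 (95% interval -0.98 to 0.64), and 0.20 (-0.61 to 1.01) at P7 and 0.03 (-0.78 to 0.84) at P0. Socs3, the inhibitor that STAT3 induces, gave 7.2, 7.0 and 7.7 in adult Plk3-KO, against 6.9, 7.9 and 7.0 in adult WT, a difference of 0.03 (-0.74 to 0.80). Both genes overlapped between genotypes at each age. A second Socs3 probe set, 1416576_at, read 7.0, 7.0 and 6.9 in adult Plk3-KO and 5.7, 6.8 and 5.9 in adult WT, without overlap, but both means lay below the minimum and it was not tested. The third, 1455899_x_at, differed by 0.43 in adults (adjusted p = 0.977), with overlap.

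Of the ligands, Edn2 gave 7.7, 8.3 and 7.7 in adult Plk3-KO retinas, against 6.9, 8.4 and 8.5 in adult WT, a difference of -0.03 (95% interval -1.39 to 1.32). At P7 it was below the minimum, at 5.1, 5.1 and 4.5 in Plk3-KO and 5.3, 3.7 and 2.4 in WT. Fgf2 was below the minimum in all 6 groups and was never tested: its single probe set ranged from 0.0 to 6.2 over the Plk3-KO arrays and from -0.1 to 4.4 over the WT arrays, with group SDs of 0.985 to 2.09. Its adult arrays read 3.0, 4.2 and 6.2 in Plk3-KO, against 3.0, 4.4 and 2.5 in WT, and the highest of these was the array that stood apart.

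Serpina3n was the only lead probe set whose adult genotypes did not overlap (1 of 9, where 5.48% of all tested probe sets had no overlap in adults). It read 5.5, 6.3 and 2.8 in adult Plk3-KO retinas, against 7.2, 7.7 and 6.6 in adult WT. Every Plk3-KO array was below every WT array, and the lowest value, 2.8, came from the Plk3-KO array that stood apart. The difference was -2.30 (SE 1.01, 95% interval -4.45 to -0.15, unadjusted p = 0.0372, adjusted p = 0.977 by limma), and the exact two-sided permutation p was 0.1, the smallest that 3 against 3 arrays can give. The probe set passed the minimum only through the WT mean of 7.17, so its size is not firm. Without that array the difference was -1.27 (adjusted p = 0.997), and without all 4 arrays called apart -1.55 (adjusted p = 0.553). With actin entered as a covariate it was -1.56 (adjusted p = 0.885). The lens values above also differed between these arrays, and their part in the difference was not tested. At P7 Serpina3n read 3.1, 2.8 and 3.6 in Plk3-KO and 3.7, 3.4 and 1.9 in WT, and at P0 2.7, 1.6 and 2.9 in Plk3-KO and 2.9, 1.6 and 2.7 in WT, below the minimum.

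The other secreted proteins and Cebpd gave smaller differences. A2m read 7.3, 7.2 and 7.6 in P0 Plk3-KO retinas, against 7.1, 7.0 and 6.9 in P0 WT. These did not overlap (1 of 5 at P0, against 3.49% of all tested probe sets), with a difference of 0.37 (95% interval -0.20 to 0.93, adjusted p = 1 by limma). A2m entered that test only through its Plk3-KO mean, since the WT mean at P0, 7.0, was not above the minimum. At P7 the A2m difference was -0.27 and in adults 0.30, with overlap at both ages, and none of the 6 lead probe sets tested at P7 lacked overlap (background 1.92%). Cebpd read 7.0, 6.5 and 6.5 in P0 Plk3-KO and 6.2, 6.0 and 6.4 in P0 WT, without overlap but below the minimum, and differed by 0.10 at P7 and -0.40 in adults. Lcn2 read 7.6, 7.0 and 6.6 in adult Plk3-KO, against 7.9, 7.8 and 6.0 in adult WT, a difference of -0.17 whose interval, -2.34 to 2.01, was among the widest.

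**Figure D2:**
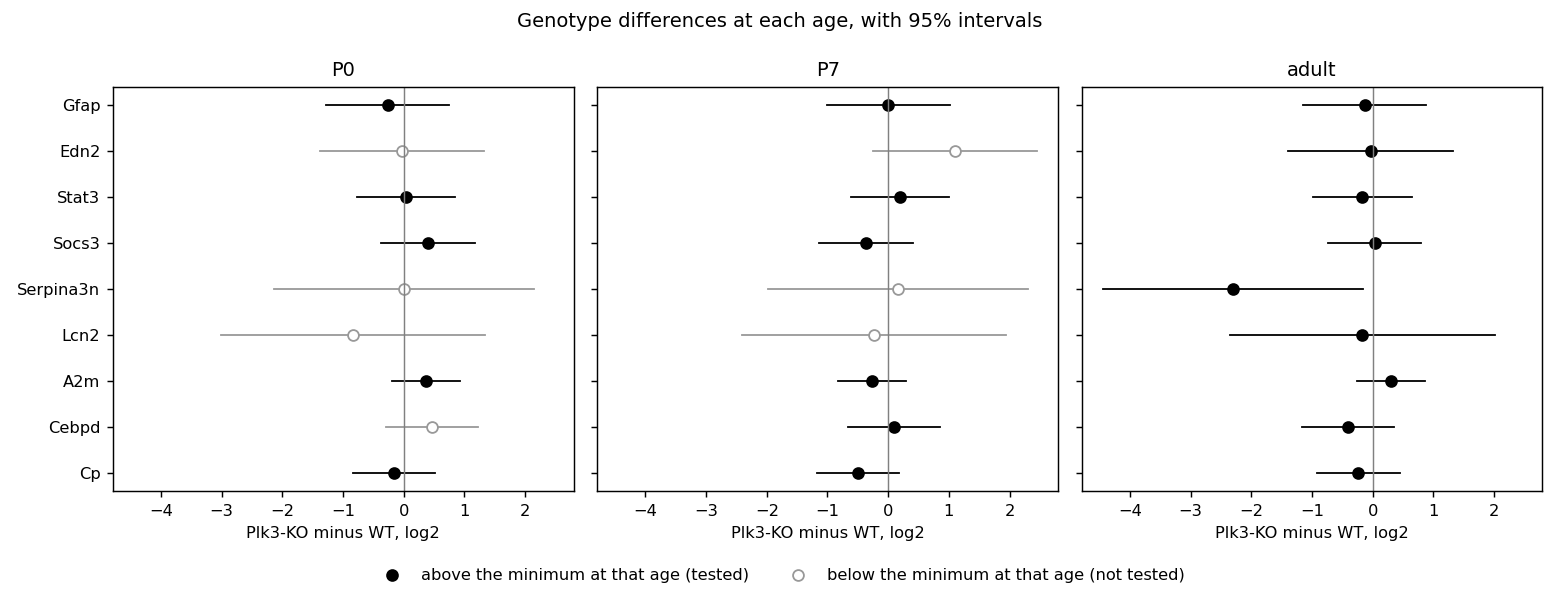
Plk3-KO minus WT difference in log2 value (horizontal axis) of the lead probe sets of 9 genes at P0, P7 and adulthood, with 95% intervals from the limma fit; filled points were above the minimum at that age and tested, open grey points were not, and Fgf2 was outside the fit. All intervals but that of adult Serpina3n (-4.45 to -0.15) include 0. Serpina3n entered that test only through its WT mean, and its difference was not called (limma, adjusted p = 0.977).

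Ceruloplasmin was read by 8 probe sets, and they did not move together. The lead, 1417494_a_at, read 10.6, 11.0 and 11.9 in adult Plk3-KO, against 11.3, 11.5 and 11.4 in adult WT, with the array that stood apart as the highest. Its genotype difference was -0.23 (95% interval -0.91 to 0.44) in adults, -0.50 at P7 and -0.17 at P0. A second Cp probe set, 1448734_at, read 9.7, 9.8 and 9.4 in adult Plk3-KO retinas, against 10.4, 10.5 and 10.7 in adult WT. At P7 it read 10.6, 9.9 and 10.4 in Plk3-KO, against 10.8, 10.7 and 10.9 in WT. The genotypes were apart at both ages, with every Plk3-KO array the lower, and at P0 they overlapped (11.7, 11.8 and 11.1 in Plk3-KO, 11.9, 11.4 and 11.3 in WT).

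For 1448734_at the difference was -0.90 in adults (SE 0.223, 95% interval -1.37 to -0.43, unadjusted p = 0.000963), -0.50 at P7 (unadjusted p = 0.0397) and 0.00 at P0. Adjusted over all probe sets, p was 0.977 in adults and 1 at P7 by limma, and over the alternatives tried the adult Cp value ranged from 0.0724 to 0.999, so the difference was not called. The t-test of the methods gave the adult Cp value an unadjusted p of 0.0038, past their threshold, and the exact permutation p was 0.1, the smallest possible. Over the 3 ages it averaged -0.47 (adjusted p = 1, exact permutation within ages p = 0.0147), with the change of the difference between ages at unadjusted p = 0.037 (adjusted p = 1). Without the array that stood apart the adult difference was -0.78. Another Cp probe set, 1417495_x_at, gave -0.47 in adults, -0.43 at P7 and -0.07 at P0, and averaged -0.32 (adjusted p = 1, exact permutation p = 0.04). The adult differences of 1455393_at, 1417496_at and 1417497_at lay between -0.07 and -0.03, and that of 1448735_at was -0.33. That of 1441326_at was 1.13, but it was below the minimum in adults and not tested. At P7 the differences were 0.67 for 1441326_at and 0.20 for 1417496_at. They were -0.63 for 1455393_at, -0.13 for 1417497_at and -0.03 for 1448735_at. In all, 8 probe sets of Cp and 3 ages were looked at, and 1448734_at was picked out of them after its values were seen.

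**Figure D3:**
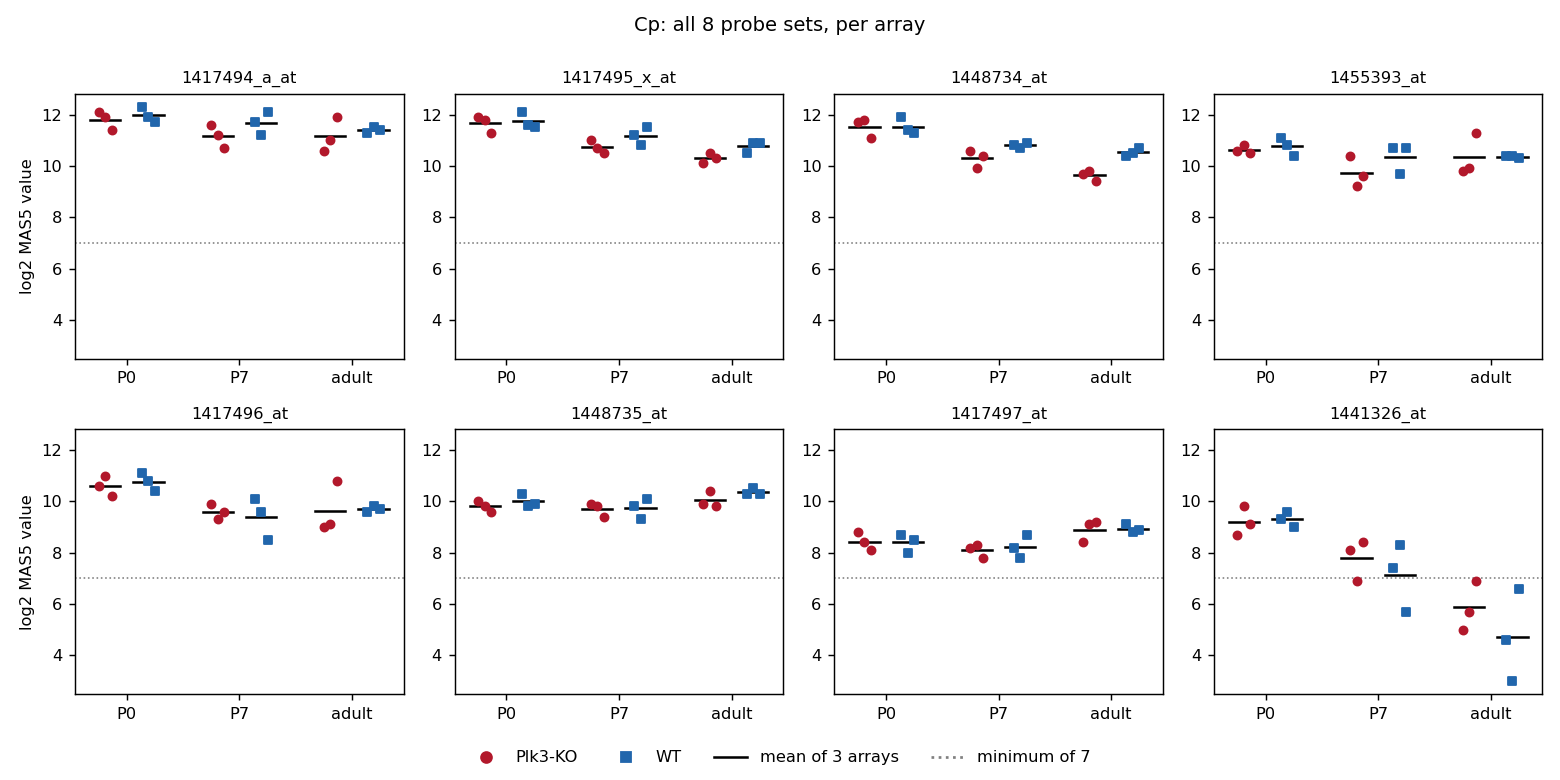
Log2 MAS5 value (vertical axis, same scale in all panels) of each of the 8 Cp probe sets on each array at P0, P7 and adulthood, Plk3-KO as circles left of WT as squares, with means as bars and the minimum of 7 dotted. In 1448734_at the adult Plk3-KO arrays (9.4 to 9.8) lie below the adult WT arrays (10.4 to 10.7), while 1441326_at drops below 7 in adults of both genotypes.

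With age, by contrast, all 9 genes that could be tested changed between P0 and adulthood, in tests over both genotypes. Adult retinas were higher than P0 retinas in Gfap, Edn2, Stat3, Serpina3n, Lcn2, A2m and Cebpd (7 of 9, where 26.1% of all 25085 probe sets rose), and lower in Socs3 and the Cp lead (2 of 9, where 36.2% fell). From P0 to P7, 4 rose (background 17.5%) and 1 fell (background 18%), and from P7 to adulthood 5 rose (background 16.1%) and 0 fell (limma, background 19.2%). The only negative value in that step was that of Cp, -0.13 (adjusted p = 0.671). The median adult minus P0 difference was 1.93 over the 9 lead probe sets and -0.22 over all probe sets. Edn2, Serpina3n and Lcn2 entered the fit only through their adult levels and were bound to differ, so these counts and medians describe the list and test nothing. With no minimum, all 10 were tested and the same 9 were called, while Fgf2 differed by 1.25 (adjusted p = 0.276). In whole retinas, fewer cells of a type and less RNA per cell cannot be told apart.

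**Figure D4:**
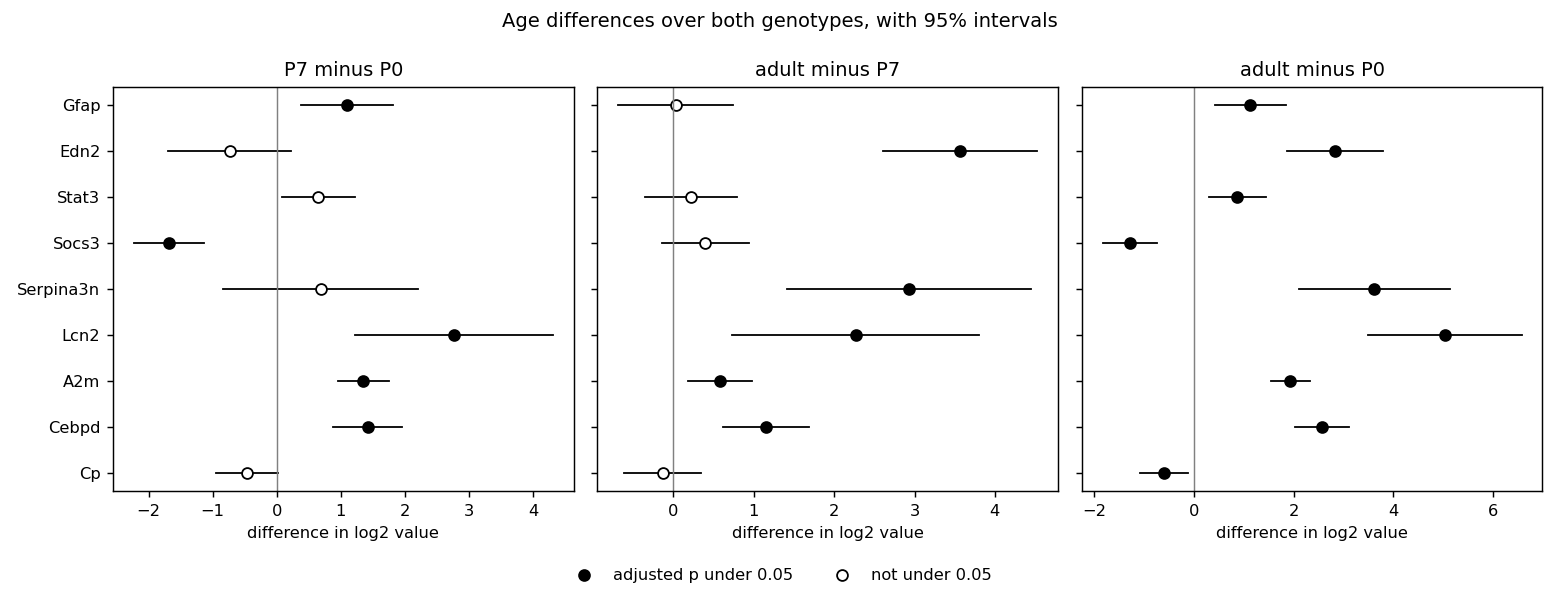
Age differences in log2 value (horizontal axis, own range in each panel) of the lead probe sets of 9 genes over both genotypes, with 95% intervals from the limma fit; filled points have an adjusted p under 0.05. Gfap and Socs3 have their change between P0 and P7 (1.10 and -1.68), Edn2 between P7 and adulthood (3.57), and Lcn2, A2m and Cebpd in both steps.

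The genes fell into several time courses. Gfap and Socs3 changed in the first postnatal week and not detectably after it. Gfap averaged 7.03 ± 0.25 in Plk3-KO and 7.30 ± 0.61 in WT at P0, 8.27 ± 0.35 in Plk3-KO and 8.27 ± 1.17 in WT at P7, and 8.23 ± 0.64 in Plk3-KO and 8.37 ± 0.12 in WT adults (SD over 3 arrays each, here and below). It rose by 1.10 from P0 to P7 (SE 0.337, adjusted p = 0.0181, 2.14-fold) and differed by 0.03 from P7 to adulthood (95% interval -0.68 to 0.75). In WT arrays alone the Gfap rise was not called, from P0 to P7 (limma, adjusted p = 0.244) or from P0 to adulthood (adjusted p = 0.123). Plk3-KO arrays fitted alone kept both calls. In the fit of all arrays, however, the Gfap rise was called within neither genotype. Adjusted p by limma was there 0.083 within Plk3-KO and 0.177 within WT from P0 to P7. From P0 to adulthood it was 0.052 within Plk3-KO and 0.077 within WT. The lowest Gfap arrays at P7 and in adults, 7.9 and 7.5 in Plk3-KO and 7.0 in P7 WT, were those with the high actin 3′ minus 5′ differences. With that difference as a covariate the Gfap step to adulthood was 1.00 (adjusted p = 0.0462) and the whole rise 2.24, against 1.13 without it. Likewise the adult minus P0 value was 1.81 for Stat3 and -1.21 for the Cp lead with the covariate, against 0.87 and -0.60 without it. The actin difference was 1.0 to 1.3 on P0 arrays, 0.8 to 1.6 on P7 arrays and 1.6 to 2.7 on adult arrays. In differences between adults and the younger ages, age and RNA quality therefore cannot be told apart, with or without this covariate. Nor can they in the step from P0 to P7 where the covariate was fitted.

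Socs3 went the other way. Its P0 arrays read 9.0, 8.6 and 8.7 in Plk3-KO and 8.6, 8.1 and 8.4 in WT, above all P7 arrays, which read 6.9, 5.9 and 7.3 in Plk3-KO and 7.2, 7.2 and 6.8 in WT. The fall to P7 was -1.68 (SE 0.257, adjusted p = 8.76e-05), a 3.21-fold drop, and adults were at -1.28 relative to P0 (adjusted p = 0.000463). The other 2 Socs3 probe sets fell as well, by 1.65 and 2.35 on the log2 scale from P0 to P7. The difference between P7 and adults was 0.40 (-0.15 to 0.95, adjusted p = 0.237).

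Stat3 rose between P0 and adulthood by 0.87 (SE 0.270, adjusted p = 0.0111, 1.82-fold). Its P0 arrays read 9.0, 9.0 and 9.1 in Plk3-KO and 8.7, 9.1 and 9.2 in WT, below all adult arrays. At P7 the values were spread, 9.8, 9.2 and 10.3 in Plk3-KO and 10.2, 10.1 and 8.4 in WT, and the step from P0 to P7 was 0.65 (adjusted p = 0.0726). Its lowest P7 arrays were again the second Plk3-KO and the third WT array, and without the 4 arrays called apart the Stat3 step was 1.08 (adjusted p = 3.82e-05). The second Stat3 probe set, 1460700_at, rose by 0.62 from P0 to P7 (adjusted p = 0.0174), and the other 2, 1424272_at and 1459961_a_at, stayed below the minimum.

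Edn2 kept low values through the first week and was high only in adults. P0 arrays read 5.0, 5.0 and 5.2 in Plk3-KO and 5.3, 4.6 and 5.4 in WT, and the adult arrays, 6.9 to 8.5 over both genotypes, were all above all younger ones. The adult minus P7 difference was 3.57 (SE 0.452, adjusted p = 2.27e-05). Since P0 and P7 values lay below the minimum, the size of the step is not firm. Edn2 entered the fit only through adults and was bound to differ. Serpina3n rose by 2.93 from P7 to adulthood (SE 0.716, adjusted p = 0.00493). Its adult arrays overlapped the younger ones, as the adult Plk3-KO array that stood apart read 2.8. Within genotypes, in the fit of all arrays, the step was 4.17 in WT (adjusted p = 0.0103) and 1.70 in Plk3-KO (adjusted p = 0.273). Serpina3n passed the minimum only through its adult WT mean, which favoured a larger step in WT, so these p-values do not test it. The change of the Serpina3n genotype difference between ages was not called (unadjusted p = 0.189, adjusted p = 1).

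Over both genotypes, Lcn2, A2m and Cebpd rose in both steps. A2m was the most even between arrays. It averaged 7.37 ± 0.21 in Plk3-KO and 7.0 ± 0.10 in WT at P0, 8.40 ± 0.53 in Plk3-KO and 8.67 ± 0.21 in WT at P7, and 9.27 ± 0.06 in Plk3-KO and 8.97 ± 0.38 in WT adults. It rose by 1.35 and 0.58 in the 2 steps (adjusted p = 3.46e-05 and 0.0241), 3.82-fold in all. The second step of A2m was lost without the second adult WT array (adjusted p = 0.0736), without the first P7 Plk3-KO array (adjusted p = 0.0669), with the actin covariate (0.51, adjusted p = 0.168), and in Plk3-KO arrays alone (0.87, adjusted p = 0.0765) and WT arrays alone (0.30, adjusted p = 0.439).

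Cebpd averaged 6.67 ± 0.29 in Plk3-KO and 6.20 ± 0.20 in WT at P0 and 8.80 ± 0.50 in Plk3-KO and 9.20 ± 0.79 in WT adults, and rose by 1.42 and 1.15 in the 2 steps (adjusted p = 0.000362 and 0.0024). Its ages did not overlap in either step, but in Plk3-KO arrays alone the second step of Cebpd was not called (limma, adjusted p = 0.102). A second Cebpd probe set, 1456605_at, rose by 0.98 from P0 to P7 (adjusted p = 0.0142) and differed by 0.75 in the second step (adjusted p = 0.0536), and its adult genotypes overlapped. Lcn2 had the largest fitted rise of the 9 genes, 5.03 from P0 to adulthood (SE 0.726, adjusted p = 2.01e-05), from P0 arrays at 3.9, 0.9 and 0.3 in Plk3-KO and 4.2, 1.6 and 1.8 in WT. Because those values lie far under 7, the rise has no firm size, and Lcn2, above the minimum only in adults, was bound to differ. Its second step (2.27, adjusted p = 0.0237) was lost without any one of 4 arrays: the first or second adult WT, the first P7 Plk3-KO and the first P7 WT array (adjusted p = 0.0543 to 0.0637). It was also lost with the actin covariate (adjusted p = 0.0916). With each genotype fitted alone, neither Lcn2 step was called. Adjusted p by limma was 0.0792 in Plk3-KO arrays alone and 0.124 in WT arrays alone for the first step. For the second it was 0.183 in Plk3-KO arrays alone and 0.157 in WT arrays alone.

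The Cp lead fell by 0.60 from P0 to adulthood (SE 0.226, adjusted p = 0.0299). The call was lost without any one of 6 arrays (adjusted p = 0.0583 to 0.0885): the first or second Plk3-KO array or the first WT array, in adults or at P0. Its other probe sets went both ways between P0 and adults. The differences that fell were -1.17 for 1417495_x_at, -1.45 for 1448734_at, -1.02 for 1417496_at and -3.95 for 1441326_at. One rose, 1417497_at (0.50, adjusted p = 0.0451), and 1448735_at (0.30) and 1455393_at (-0.35) were not called. The files do not place these probe sets on the transcripts, so which part of Cp each reads was not determined.

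Of the pathway around STAT3, the ligands were mostly below the minimum: of 6 interleukin-6 family ligands on the array, only Ctf1 (cardiotrophin-1) was tested, Clcf1 and Osm being below the minimum, and it rose by 0.73 from P0 to adulthood. Of 7 receptor and Janus kinase genes tested between P0 and adulthood, 4 rose and 1 fell (median 0.58), where 26.1% of all probe sets rose and 36.2% fell. Osmr, the oncostatin M receptor subunit, rose by 3.62 (adjusted p = 8.23e-09, from P0 means below the minimum), Lifr, the LIF receptor, by 0.93, Jak1 by 0.88 and Il6st, which codes for gp130, by 0.58, while Jak2 fell by 0.37. Of 10 further STAT factors and inhibitors, 8 rose and 1 fell (median 0.50). Stat5a, which rose by 2.27, was above the minimum only in adults and was bound to differ, so this count tests nothing. Socs5 rose by 1.00, Socs7 by 0.52 and Pias1 by 0.55, whereas Socs2 fell by 1.97 on the log2 scale. Ptpn11, which codes for the phosphatase SHP2, rose by 0.35, and Pias3, an inhibitor of STAT3, differed by -0.30 (adjusted p = 0.0637) after a P7 value 1.38 above P0. The size of the Osmr rise is therefore not exact. None of these genes was called between genotypes at any age.

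Around the other ligands and factors the counts were mixed. In the endothelin system 4 genes were tested: Ednrb (the type B receptor) fell by 2.17 and the converting enzymes Ece1 and Ece2 by 1.07 and 1.30 on the log2 scale between P0 and adulthood, and Edn3 rose by 1.07, where Edn2 itself was higher in adults. Of 7 FGF genes, 2 rose (Fgf1 by 4.92 and Sdc4, a heparan sulfate co-receptor, by 2.05), 3 fell and 2 did not pass the test. Fgf9 was among the 3 that fell (-0.80, limma, adjusted p = 0.00251), while Fgf13 differed by 0.32 and was not called (adjusted p = 0.11). Of the C/EBP relatives, Cebpb rose by 1.00 and Cebpg fell by 1.30 on the log2 scale, and Cebpa was below the minimum. Of 9 further genes known from reactive glia that were tested, 5 rose, 3 fell and 1 did not pass the test. Of all probe sets, 26.1% rose and 36.2% fell between P0 and adulthood. The metallothioneins Mt1 and Mt2 rose by 3.17 and 2.67, the guanylate binding protein Gbp2 by 4.27, the stress factor Atf3 by 3.58 and the small heat shock protein Hspb1 by 1.15, while the filament genes Vim and Nes and the receptor S1pr3 fell by 0.57, 1.80 and 0.57 on the log2 scale. Gbp2 and Atf3 were below the minimum at P0 and P7, and Fgf1 at P0, so the sizes of their rises rest on values under 7. Edn3 was above the minimum only in adults. Gbp2, Atf3 and Edn3 thus entered the fit only through adults and were bound to differ, so the counts that hold them test nothing. Genotype calls by limma were 0 in all these lists.

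Markers of other cells moved with age too. Of all probe sets, 26.1% rose and 36.2% fell between P0 and adulthood. The shares were 17.5% and 18% from P0 to P7, and 16.1% and 19.2% from P7 to adulthood. Of 14 Müller glia genes, 8 rose and 4 fell between P0 and adulthood. Glul, the glutamine synthetase, rose by 1.60 and Car2, a carbonic anhydrase, by 1.53, while Spc25 differed by 0.08 (adjusted p = 0.683), and their mean per array was 10.4 to 10.6 at P0, 10.6 to 10.9 at P7 and 11.8 to 12.2 in adults over both genotypes. Astrocyte genes rose between P0 and P7 (4 of 6, with 0 lower; median 2.16), the step in which Gfap rose. Aldoc rose by 2.70 and Pdgfra by 2.13, and Gja1 differed by 1.22 (adjusted p = 0.15). Of 10 microglial genes, 7 were higher at P7 than at P0 and 8 were lower in adults than at P7. Csf1r, C1qa and Tyrobp were 1.68, 1.5 and 1.67 higher at P7 than at P0. Most vascular genes took the same course (5 of 7 and 7 of 7), but Kdr fell by 0.88 from P0 to P7 (limma, adjusted p = 0.00256). Aif1, Cdh5, Tek and Vwf passed the minimum only at P7, which favoured a peak there, so these counts test nothing. All 6 tested pigment epithelium genes, of 7 on the array, rose between P0 and adulthood (mean per array 5.21 to 6.03 at P0, 7.33 to 8.73 at P7, 8.90 to 10.04 in adults). Lrat, 1 of the 6, was above the minimum only in adults and was bound to differ, so this count tests nothing. Lens genes were lower at P7 than at both other ages (4 of 6 fell from P0, 4 of 6 rose to adulthood). All 7 tested progenitor genes fell between P0 and adulthood, among them Ccnd1 (-4.73), Sox2 (-2.32) and Hes1 (-1.73). Fgf15, also 1 of the 7, was above the minimum only at P0 and was bound to differ, so this count tests nothing either. The part of all these cells in the levels of the 10 genes was not tested.

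The genes most like 3 of the members over the 18 arrays, among 12100 genes, were ranked by Pearson correlation of lead probe sets. The arrays share 3 ages, so most such likeness is likeness over age. Next to Gfap came Ube2w (0.883), Rhbdd2 (0.878) and Ntm (0.876). Next to Edn2 came Kcnj10, the main potassium channel of Müller glia (0.928), Glb1l2 (0.925) and Col19a1 (0.916). Kcnj10 averaged 8.13 in Plk3-KO and 8.17 in WT at P0, 7.73 in Plk3-KO and 7.67 in WT at P7, and 9.47 in adults of both genotypes. Next to Stat3 came Ppp2r2c (0.919), Plppr4 (0.914) and Ptprn2 (0.910).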

How the data were processed

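RNA of isolated retinas was hybridized to 1 Affymetrix array a sample (6 groups of 3). The authors read the scans with the affy package of Bioconductor, background-corrected and normalized them with MAS5 (version not given in the sources used here) and deposited log2 values with 1 decimal. The values were used as deposited. After 64 control probe sets were left out, 25085 of 45037 probe sets had a group mean above 7 and were fitted in limma 3.58.1 (R 4.3.3) with 6 group means and a variance trend (12 residual and 4.07 prior degrees of freedom). Genotype contrasts were adjusted (Benjamini-Hochberg) over probe sets above 7 at that age, age contrasts over all 25085. Calls were at an adjusted p under 0.05. Single probe sets had two-sided exact permutation tests. The script was tested on simulated data. The members and gene lists were chosen with earlier results of these data known. Named were all member probe sets, the 3 genes of highest mean in each list, and the 3 genes most like each of Gfap, Edn2 and Stat3. The vascular, pigment epithelium, rod and lens markers were instead given mainly as counts or levels. Other list genes were named after their values were seen. Gene symbols come from GEO's platform annotation, of unstated build. Alternatives were another normalization, other minimums, variance settings and array weights, a replicate block, an actin covariate, single genotypes, and arrays left out.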

Additional observations from a re-analysis of the deposited data

How the results depend on the processing

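After adjustment, no member was called between genotypes under any alternative tried, and none in the genotype difference between ages (0 in each, also with arrays left out). Over all probe sets the adult genotype calls were 0 in most settings, but 338 of 20242 without the 4 arrays called apart, 241 of 21005 with array weights, 105 of 20962 without the third adult WT array and 4 of 21496 without the second adult Plk3-KO array. Of 1710 values of single members under the alternatives, 1671 stayed on the same side of the threshold, 27 lost it, 12 gained it and 0 reversed past it. From P0 to P7, 5 members were called; WT arrays alone gave 3, Plk3-KO arrays alone 4, and all probe sets of the members 14 of 21. From P7 to adulthood, 5 were called; a minimum of 8 gave 2 of the 6 then tested, WT arrays alone 3, Plk3-KO arrays alone 1, and all probe sets 9. From P0 to adulthood, 9 were called, Plk3-KO arrays alone gave 6 and WT arrays alone 6, with Stat3 and the Cp lead called in neither, and all probe sets gave 19. Calls over the whole array fell as well: from P0 to P7 they were 4135 of 24298 in Plk3-KO arrays alone and 4201 of 24514 in WT arrays alone, against 8910 of 25085 in all arrays. In the same order they were 3484, 3464 and 8864 from P7 to adulthood, and 10275, 11225 and 15637 from P0 to adulthood, of the same totals. With the actin covariate 5 were called from P7 to adulthood, 3 of them shared, as Lcn2 and A2m gave way to Gfap and Stat3. Single-genotype fits hold 9 arrays and all-probe-set counts hold more features; the cause of the other changes was not tested. With each array left out in turn the counts ranged from 5 to 6 (P0 to P7), 2 to 5 (P7 to adulthood, with 2 without the second adult WT array and 3 without the first P7 Plk3-KO array) and 8 to 9 (P0 to adulthood). Replicate numbers are shared by the groups, but same-numbered Plk3-KO and WT arrays deviated together at only some ages (r of 0.489, 0.098 and 0.544 in adults, 0.379, -0.485 and -0.61 at P7), so they were not taken as pairs; the replicate block gave 0 in every genotype comparison and 5, 5 and 9 in those of age. The planned likelihood estimate of array weights did not converge and is not given; weights estimated gene by gene, chosen after seeing the data, were used instead and gave 0 genotype calls among the members, while 3 arrays a group and values under 7 limit what could be detected.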
